A study of Mus musculus with 10 samples.

Results

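EZH2 domains that carried H3K27me3 in control ES cells and were still called as EZH2 domains in ex14D-Ezh2 cells are described here. The members were taken from the 5001 EZH2 domains of control replicate 1 on chromosomes 1 to 19. Of these, 4917 overlapped a domain of control replicate 2 by at least 1 bp, 4590 of those overlapped an H3K27me3 peak in both control libraries, and 2814 of those were overlapped by an EZH2 domain in both ex14D libraries. The kept domains therefore made up 61.3% of the marked control domains, and this share ranged from 50.7% to 71.4% with 1 library left out. A further 623 marked domains were overlapped in only 1 ex14D library, and 1153 in neither. The members were thus chosen by measured values, namely the EZH2 domain calls of all 4 EZH2 libraries and the presence of H3K27me3 peaks in the 2 control libraries. EZH2 widths, EZH2 counts and the presence of control peaks are given as descriptions without a test. The H3K27me3 values of the ex14D libraries had no part in the choice.

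The cells were E14 mouse ES cells with the strain label 12910la. Control cells were wild type. In ex14D cells CRISPR-Cas9 had left an in/del in exon 14 of Ezh2, so that the spliced form without this exon was the only functional EZH2. The sample titles name the mutant cells Ezh2KO and the genotype label gives a knockout of exon 14. They were taken as the ex14D cells, although the study also used Ezh2 knockout cells, and the read counts used here cannot check the genotype. Each genotype had 2 EZH2 libraries, 2 H3K27me3 libraries and 1 input library. The names of the ex14D libraries carry a different tag for each replicate, which may stand for separate lines or clones but is not explained in the sources used here. Nothing in the labels says whether replicates were separate cultures, so p-values measure only the spread between these libraries, which may be technical. In such bulk chromatin, fewer cells that carry a mark and less mark per cell cannot be told apart. The sources used here name no spike-in, so all values are relative within a library. Reads counted on promoters numbered 594289 to 1450937 in the H3K27me3 libraries, and reads counted on genes numbered 13628137 to 18403892 in the EZH2 libraries. The EZH2 calls comprised 5001 and 6802 domains in control and 3458 and 3335 in ex14D.

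EZH2 is the catalytic subunit of polycomb repressive complex 2 (PRC2), which also contains EED and SUZ12 and methylates lysine 27 of histone H3. The trimethylated form, H3K27me3, is found over silent genes. In mouse ES cells PRC2 gathers at promoters rich in CpG dinucleotides, above all those of regulators of development, and EED binds existing H3K27me3, which stimulates the enzyme and lets the mark spread from the sites where PRC2 is recruited. Exon 14 encodes a stretch of the CXC domain, which lies before the catalytic SET domain.

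Sequences of promoters and of a flank within kept domains are shown because the CpG content of a kilobase differed between those that stayed within an ex14D domain and those that did not. Promoter windows are 300 bases at or near the RefSeq start of a gene, on the coding strand of GRCm38.p6, with each CpG in capitals. Windows were taken for genes studied by ChIP-PCR and for the members that ranked highest by the lower of their ex14D H3K27me3 fold enrichments and held a promoter with an entry. Of the 2430 genes with a counted promoter in a kept domain, 1736 had an entry (71.4%), too few for a description of all promoters by their sequence.
The Hoxa10 window (chr6:52240805-52241104, reverse strand) holds 12 CpG and that of Hoxd9 (chr2:74697513-74697812, forward strand) holds 20. Both genes encode homeobox factors that pattern the body axis.
Hoxa10: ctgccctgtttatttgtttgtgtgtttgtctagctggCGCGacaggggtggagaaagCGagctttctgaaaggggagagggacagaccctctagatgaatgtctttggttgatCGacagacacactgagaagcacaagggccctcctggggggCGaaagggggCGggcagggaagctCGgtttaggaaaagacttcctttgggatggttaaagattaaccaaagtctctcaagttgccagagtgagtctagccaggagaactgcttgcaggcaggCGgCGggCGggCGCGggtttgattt
Hoxd9: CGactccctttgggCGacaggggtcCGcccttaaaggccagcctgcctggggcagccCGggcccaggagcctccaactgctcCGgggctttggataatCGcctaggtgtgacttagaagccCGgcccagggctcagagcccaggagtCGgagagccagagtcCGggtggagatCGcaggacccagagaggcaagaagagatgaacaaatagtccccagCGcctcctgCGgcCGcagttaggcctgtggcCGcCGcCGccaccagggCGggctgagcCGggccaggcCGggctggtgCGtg
The window of Bmp6, which encodes a bone morphogenetic protein (chr13:38345466-38345765, forward strand), holds 27 CpG, and that of Pax7, a paired-box factor of muscle and neural precursors (chr4:139832919-139833218, reverse strand), holds 17. The Pax7 window lies downstream of the RefSeq start at 139833530 that was used to place its promoter, and does not hold it.
Bmp6: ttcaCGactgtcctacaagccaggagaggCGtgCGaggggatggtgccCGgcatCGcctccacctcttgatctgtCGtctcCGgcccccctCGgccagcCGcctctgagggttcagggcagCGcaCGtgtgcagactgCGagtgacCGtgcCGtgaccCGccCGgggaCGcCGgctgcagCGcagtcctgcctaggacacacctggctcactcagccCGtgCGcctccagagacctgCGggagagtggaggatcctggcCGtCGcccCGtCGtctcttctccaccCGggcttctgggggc
Pax7: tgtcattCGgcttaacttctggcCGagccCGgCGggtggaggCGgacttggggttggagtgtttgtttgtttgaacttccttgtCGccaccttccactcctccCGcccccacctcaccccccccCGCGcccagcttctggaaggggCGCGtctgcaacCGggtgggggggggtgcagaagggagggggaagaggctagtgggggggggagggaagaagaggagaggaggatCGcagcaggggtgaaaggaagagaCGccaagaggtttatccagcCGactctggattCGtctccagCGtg
The window of Elavl3, a neuronal RNA-binding protein (chr9:22051974-22052273, reverse strand), holds 29 CpG. Most of it lies in the kilobase chr9:22052001-22053000, which was part of the domain in both control libraries and in neither ex14D library.
Elavl3: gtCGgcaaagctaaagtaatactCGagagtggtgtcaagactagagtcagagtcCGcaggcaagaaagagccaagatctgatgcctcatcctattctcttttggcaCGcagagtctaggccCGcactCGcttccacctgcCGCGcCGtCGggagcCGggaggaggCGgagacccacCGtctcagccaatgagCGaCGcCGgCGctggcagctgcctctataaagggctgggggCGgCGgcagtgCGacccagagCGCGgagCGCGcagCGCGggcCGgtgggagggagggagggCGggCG
Atp2b2, a calcium pump of the plasma membrane (chr6:114042031-114042330, reverse strand, 27 CpG), and Ptprt, a receptor tyrosine phosphatase (chr2:162661098-162661397, reverse strand, 46 CpG), ranked highest by the lower of the 2 ex14D fold enrichments among members with a promoter.
Atp2b2: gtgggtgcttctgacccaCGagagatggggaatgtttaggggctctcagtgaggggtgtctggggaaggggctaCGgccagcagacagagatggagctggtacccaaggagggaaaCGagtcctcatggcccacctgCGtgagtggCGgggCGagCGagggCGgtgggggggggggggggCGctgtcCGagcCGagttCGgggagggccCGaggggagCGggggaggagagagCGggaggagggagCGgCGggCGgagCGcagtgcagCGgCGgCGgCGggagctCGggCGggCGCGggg
Ptprt: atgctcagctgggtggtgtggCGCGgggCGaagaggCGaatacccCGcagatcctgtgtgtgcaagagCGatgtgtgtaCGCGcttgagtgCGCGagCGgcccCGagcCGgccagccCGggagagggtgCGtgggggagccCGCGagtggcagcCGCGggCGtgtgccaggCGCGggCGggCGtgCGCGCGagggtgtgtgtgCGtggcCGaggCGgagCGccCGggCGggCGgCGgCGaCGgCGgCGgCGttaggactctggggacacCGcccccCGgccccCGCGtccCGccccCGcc
For contrast, 300 bases are shown from the centre of the kilobase at the edge of the Shc3 domain that was called in both control and in neither ex14D library (chr13:51565351-51565650, 5 CpG), on the forward strand.
Shc3 flank: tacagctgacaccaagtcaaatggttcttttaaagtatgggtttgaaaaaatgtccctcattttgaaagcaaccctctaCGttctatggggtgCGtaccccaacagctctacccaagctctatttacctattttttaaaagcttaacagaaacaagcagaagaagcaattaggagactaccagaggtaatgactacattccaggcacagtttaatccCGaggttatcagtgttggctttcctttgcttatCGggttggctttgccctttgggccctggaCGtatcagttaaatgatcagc

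Kept domains were wider than the marked domains that were not kept. Only 85 of 711 marked domains of 1 kb were kept (12%), against 549 of 1378 of 2 kb (39.8%), 794 of 1023 of 3 kb (77.6%), 488 of 540 of 4 kb (90.4%), 626 of 664 of 5 to 9 kb (94.3%) and 272 of 274 of at least 10 kb (99.3%). A wide domain offers more bases to the 1 bp rule, and the part of this in the gradient was not tested. The kept domains covered 14.1 Mb, which was 78.0% of the bases of all control replicate 1 domains. The share kept was alike along the genome, between 55.5% and 66.2% on the 19 chromosomes. A further 327 domains shared by the control libraries lacked an H3K27me3 peak in 1 or both of them. Of these, 23 were overlapped in both ex14D libraries (7.03%).

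The kept domains were narrower in ex14D. Domains that touched a member had a median width of 3 kb in control replicate 1, 5 kb in control replicate 2 and 3 kb in each ex14D library. Their mean widths were 5.00 and 7.45 kb in control and 4.07 and 4.51 kb in ex14D. The ratio of the mean ex14D width to the mean control width had a median of 0.667 (quartiles 0.545 to 0.824). It was below 1 in 2539 members (90.2%), equal to 1 in 211 and above 1 in 64, and at most 0.5 in 664 (23.6%). The size of this difference depended on the control library. The median ratio was 0.800 and 0.813 for the ex14D libraries against control replicate 1 and 0.600 for each against control replicate 2, while the control libraries themselves differed by 1.33 and the ex14D libraries by 1.00. Without control replicate 2 the median ratio was 0.833. Over the widths of both control libraries, 1219 members (43.3%) were narrower in both ex14D libraries than in either control library, 0 were wider, and 1595 overlapped or tied. Over all 2837 control replicate 1 domains touched in all 4 libraries the share narrower was 43.1%, and since the rule used this contrast nothing is read from the counts.

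**Figure D1:**
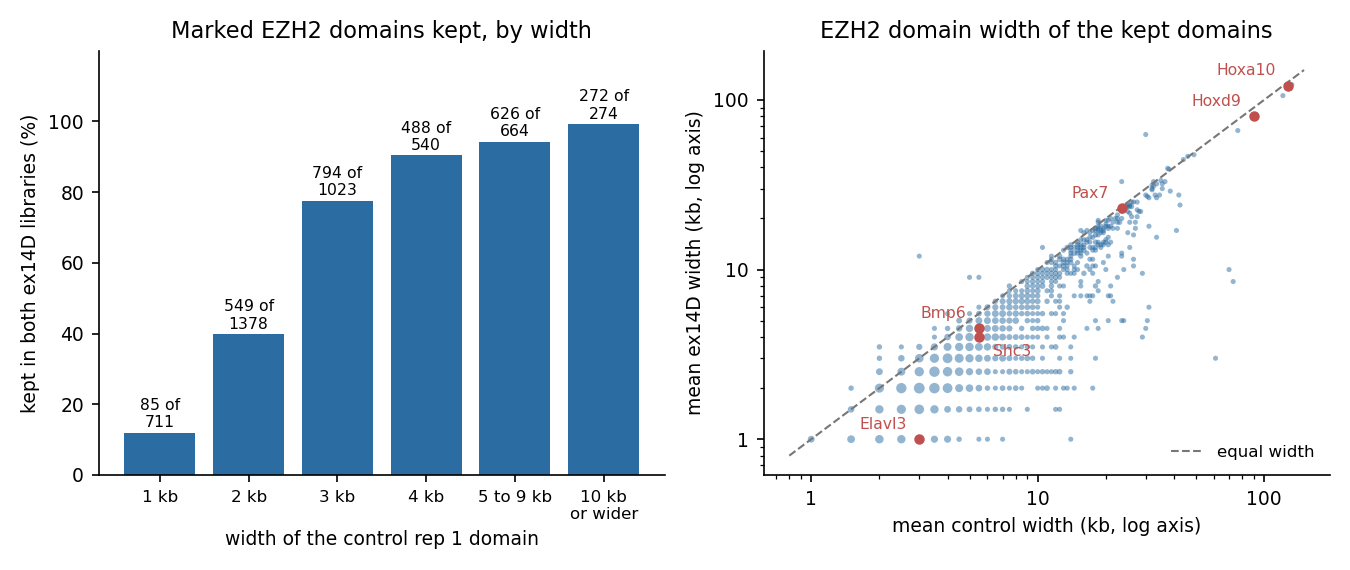
Left, percentage of marked EZH2 domains kept in both ex14D libraries by width of the control replicate 1 domain, with counts above the bars. Right, mean ex14D against mean control width of the 2814 kept domains in kb on log axes, with larger points for more members at the same widths, genes studied by ChIP-PCR in red, and equal width as the dashed line. The share kept climbs from 12% at 1 kb to 99.3% at 10 kb or more, and most points lie below the line.

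Narrowing was not of the same extent at all widths. The median ratio of full widths lay between 0.667 and 0.714 for members of 1 to 9 kb in control replicate 1. It was 0.826 for those of at least 10 kb. Domain widths move in steps of 1 kb, so the rule itself makes members of 1 kb covered in full. A ratio below 1 there needs a wider domain in control replicate 2. Of the bases of wider members, ex14D replicate 1 covered 84.9% at 2 kb, 71.4% to 74.3% at 3 to 9 kb and 86.6% at 10 kb or more. For ex14D replicate 2 the values were 85.5%, 71.7% to 75.05% and 87.04%. Within the bounds of the control replicate 1 domain, control replicate 2 covered 2567 members in full (91.2%), ex14D replicate 1 covered 1031 (36.6%) and ex14D replicate 2 covered 1053 (37.4%), and 714 members (25.4%) were covered in full by both ex14D libraries. Few domains broke up, since 56 and 20 members were met by more than 1 ex14D domain. At the margin of the rule, 460 members wider than 1 kb were overlapped by only 1 kb in at least 1 ex14D library. These had a median width of 2.5 kb in control, H3K27me3 fold enrichments of 3.32 and 3.01 in the control libraries and a TSS in 68.9%. Only 1 marked domain that was not kept had its farther ex14D domain within 1 kb. It was 1 kb wide and held a TSS, with control fold enrichments of 16.6 and 9.77.

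The widest members were the Hox clusters. The domain over Hoxc4 to Hoxc13 (chr15:102909001-103038000) was 129 and 136 kb wide in control and 121 and 125 kb in ex14D. Each ex14D library called it in 3 pieces, which reached from 102908001 to 103037000 and from 102910001 to 103042000, and the widths leave out the gaps between them. The domain over the Hoxa cluster (chr6:52150001-52277000) was 127 and 129 kb wide in control and 119 and 124 kb in ex14D, in 2 pieces in ex14D replicate 1. In both clusters each ex14D width lay below each control width. The Hoxb domain (chr11:96250001-96358000) measured 108 and 134 kb in control and 107 and 105 kb in ex14D, in 2 pieces in ex14D replicate 2. Its right end lay at 96381000 in control replicate 2 and at 96357000 or 96358000 in the other libraries. The domain with Evx2, Hoxd3 and Hoxd8 to Hoxd13 (chr2:74654001-74716000) measured 62 and 118 kb in control against 61 and 99 kb in ex14D. Here the groups overlapped. The right end of this domain moved also within a genotype, from 74716000 to 74766000 in control and from 74716000 to 74754000 in ex14D. The domain of Nr2f2, a nuclear receptor of mesoderm and vessels (chr7:70324001-70372000), was 48 and 50 kb wide in control and 47 and 48 kb in ex14D.

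Among the 2143 members of at least 3 kb in both control libraries, the lowest ratios came from domains that control replicate 2 had joined to a wider one. The Hoxd1 domain (chr2:74761001-74765000) was 4 kb wide in control replicate 1 and 3 kb in each ex14D library, but part of a domain of 118 kb in control replicate 2, for a ratio of 0.049. The Hoxb1 domain (chr11:96363001-96375000) measured 12 kb in control replicate 1, 134 kb in control replicate 2 and 5 and 12 kb in ex14D. The same held for 2 domains outside protein-coding genes, at chr12:49399001-49403000 (4, 31, 2 and 2 kb in the same order) and chr4:115962001-115967000 (5, 53, 4 and 4 kb). It also held for a domain within Sall3, a zinc finger repressor (4, 21, 2 and 1 kb). At the other end, a domain in an intron of Lmx1b, a LIM homeobox factor (chr2:33614001-33619000), was 5 and 42 kb wide in control and 33 kb in each ex14D library, for a ratio of 1.40. The domain of Hes2, a repressor of the Hes family (chr4:152157001-152161000), measured 4 kb in each control library and 3 and 8 kb in ex14D, and that of Dtx1, a Notch pathway ubiquitin ligase (chr5:120709001-120712000), 3 and 4 kb in control and 2 and 7 kb in ex14D. A domain within Pth1r (chr9:110740001-110746000) measured 6 and 15 against 5 and 22 kb, and that of Serpine2, a protease inhibitor (chr1:79857001-79860000), 3 and 3 against 3 and 4 kb. In none of these 5 members were both ex14D widths above both control widths.

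The kilobases that left the domains were poor in CpG. Both control libraries called 13802 kilobases of the kept domains, of which 10213 (74.0%) were called in 2 ex14D libraries, 1758 (12.7%) in 1 and 1831 (13.3%) in 0. Retained kilobases had a median of 4.1 CpG per 100 bases (quartiles 2.1 to 6.4) and 55.6% GC, and 21.6% held a TSS. Kilobases called in 0 ex14D libraries had 1.4 CpG (1.0 to 2.1) and 48.6% GC, and 7.54% held a TSS. Those called in 1 ex14D library lay close to the latter, at 1.6 CpG (1.0 to 2.6). For comparison, all 1 kb bins of the genome had a median of 0.7 CpG (0.4 to 1.1). Within the 1269 members that held kilobases of both kinds, 1237 (97.5%) had more CpG in the retained than in the lost kilobases, with medians over members of 5.2 and 1.44 CpG per 100 bases. Since the EZH2 calls defined both kinds, these are descriptions without a test.

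**Figure D2:**
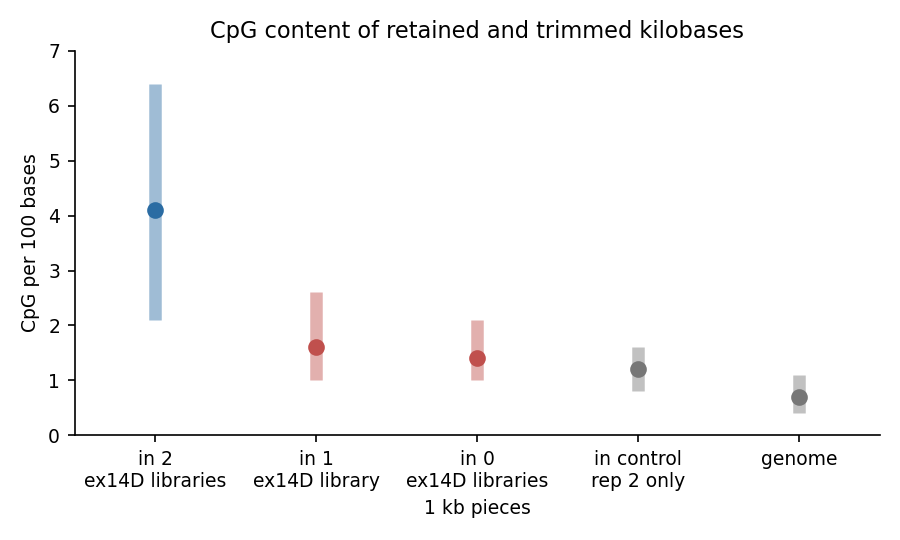
CpG per 100 bases (vertical axis) of 1 kb pieces of kept domains called in 2, 1 or 0 ex14D libraries, of pieces called only in control replicate 2, and of the genome. Points are medians and bars span the quartiles. Pieces called in 2 ex14D libraries lie at 4.1, and those called in 1 or 0 lie at 1.6 and 1.4.

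The difference was also present at equal position within a domain. Among outermost kilobases, those called in 2 ex14D libraries had 3.8 CpG per 100 bases and those called in 0 had 1.4. Among kilobases at least 1 kb from an edge the values were 4.2 and 1.4. A difference of this kind was also present between the control libraries. The 4821 kilobases that only control replicate 2 added around the members had 1.2 CpG per 100 bases (0.8 to 1.6), and 4.09% of them held a TSS. Of these, 80.4% were called in neither ex14D library. Most kilobases that left the EZH2 domain were still touched by an H3K27me3 peak, by at least 1 bp. Of those called in 0 ex14D libraries, 98.3% and 95.03% were touched by a peak in the ex14D H3K27me3 libraries, against 95.9% and 99.5% in control.

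Single domains varied in this. In the domain of Shc3, a signalling adaptor of neurons (chr13:51565001-51570000), the kilobases held 14, 18, 94, 24 and 37 CpG from left to right, and only the one with 14 was called in neither ex14D library. The Elavl3 domain (chr9:22050001-22053000) was 3 kb wide in each control library and 1 kb in each ex14D library. Its middle kilobase, with 92 CpG, was retained in both, while the outer ones, with 58 and 33, were called in neither, and the one with 33 CpG holds the TSS. In the domain of Hoxa10 the kilobases called in neither ex14D library held 12 to 23 CpG, within the 1 to 150 of the retained ones. The same was true of the Hoxd9 domain, with 24 CpG in the kilobase called in neither and 5 to 148 in the retained ones.

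By their composition as a whole, kept domains hardly stood apart from lost ones. The median CpG content was 4.1 per 100 bases in kept and 4.23 in lost domains, with 55.3% and 56.8% GC. A TSS lay in 75.9% of kept, 60.4% of domains kept in 1 ex14D library and 52.1% of lost domains. Shared domains that lacked an H3K27me3 peak in 1 or both control libraries were richer in CpG, with 7.0 per 100 bases. At equal width the order of kept and lost turned. Kept domains of 2 kb had 4.85 CpG per 100 bases against 3.85 in lost ones, with a TSS in 65.6% and 64.6%, and at 3 kb the values were 4.3 and 3.47 CpG, with a TSS in 75.9% and 68.2%.

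H3K27me3 peaks remained over nearly all kept domains in ex14D. A peak was absent from 4 of 2814 members in ex14D replicate 1 and from 13 in replicate 2. Among the 1153 lost domains, which also had a peak in both control libraries, it was absent from 84 and 217. The peaks covered 95.7% and 98.8% of the bases of kept domains in control and 97.5% and 94.7% in ex14D. The corresponding values for lost domains were 76.7% and 91.1% in control and 77.7% and 61.9% in ex14D. The widths of the peaks over kept domains had medians of 5.61 and 7.25 kb in control and 5.72 and 4.85 kb in ex14D, and the groups overlapped. The 2 members without a peak in either ex14D library were the domains of Cadm1, a cell adhesion molecule (chr9:47530001-47532000), and Ddhd1, a phospholipase (chr14:45657001-45658000). Their control fold enrichments were low, at 2.64 and 1.91 for Cadm1 and 1.92 and 2.83 for Ddhd1. At the Cadm1 promoter, H3K27me3 fell from 25.9 and 36.7 counts-per-million (CPM, scaled by TMM) in control to 11.6 and 6.96 in ex14D (log2 fold change −1.75 ± 0.39 SE, edgeR adjusted p = 0.00384).

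Fold enrichment of these peaks, which the peak caller gives as the ratio of reads to the local background, was higher in ex14D than in control, but by about the same factor as for all peaks. Over the kept domains the median was 3.36 and 3.20 in the control libraries (quartiles 2.45 to 5.55 and 2.32 to 5.17) and 4.92 and 5.63 in the ex14D libraries (2.87 to 9.70 and 3.18 to 12.01). The highest values were 18.9 and 16.3 in control and 42.4 and 48.6 in ex14D. All peaks of the same libraries had medians of 3.31, 3.06, 4.79 and 5.54 in the same order, and peaks over lost domains 3.30, 3.02, 5.00 and 5.30. In the 2799 members with a peak in all 4 libraries, the median difference of log2 fold enrichment was 0.63 (quartiles 0.07 to 1.31), whereas the shift of all peaks was 0.70. Relative to all peaks the difference was −0.07. An exact two-sided permutation test of the library medians gave p = 0.333, the smallest value that 2 against 2 libraries allow.

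**Figure D3:**
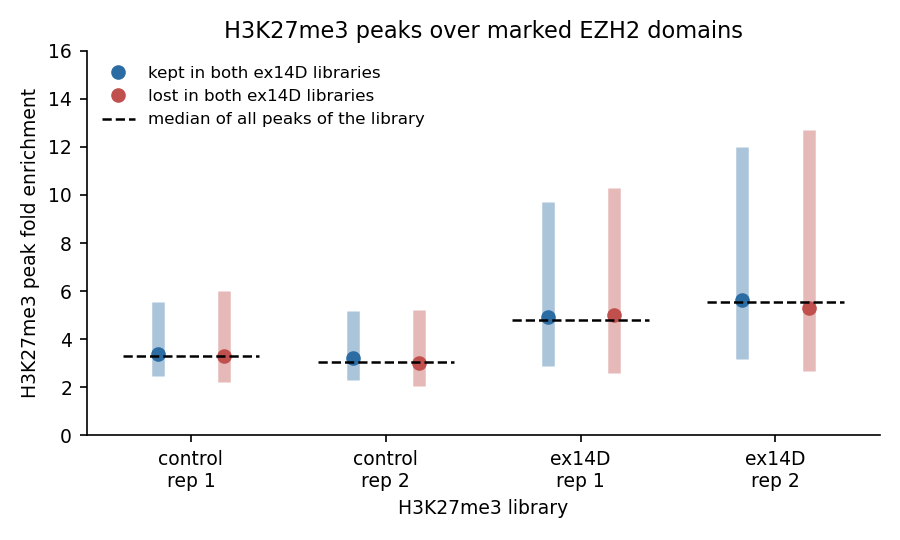
H3K27me3 peak fold enrichment (vertical axis) over kept and lost EZH2 domains in the 4 H3K27me3 libraries, with medians as points, quartiles as bars and the median of all peaks of a library as the dashed line. Medians of kept domains move from 3.36 and 3.20 in control to 4.92 and 5.63 in ex14D, and the dashed lines move with them.

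Among the 2799 members, fold enrichment was higher in both ex14D libraries than in either control library in 1267 (45.3%) and lower in 199 (7.11%). Over all 4299 marked domains with a peak in all 4 libraries, kept or not, these shares were 43.3% and 7.75%. After each library was set to the median of its own peaks, the counts were 625 (22.3%) higher and 664 (23.7%) lower, against 21.8% and 23.9% over all marked domains. The shares of the kept domains were thus near those of marked domains in general. The relative difference varied with the level in control, without a steady order. It was 0.40 on the log2 scale for 111 members with a geometric mean control fold enrichment under 2, −0.01 for 1660 members from 2 to 4, −0.24 for 885 from 4 to 8 and 0.07 for 143 of at least 8. This grouping uses the control values that also enter the difference, so the groups are not independent of it. The order of members by fold enrichment was only weakly shared between libraries. Across members Spearman's rho was 0.22 between the control libraries and 0.40 between the ex14D libraries. CPM at member promoters, in contrast, had rho of 0.94 and 0.99 for the same pairs, and rho between fold enrichment and promoter reads within a library was 0.06 to 0.11. Neighbouring members can share a peak, and all members of a library share its depth, so these correlations are descriptions.

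The 5 members that ranked highest by the lower of their ex14D fold enrichments lay in Atp2b2, Fgf12, Dysf and Ptprt. A domain in the body of Atp2b2, away from its promoter (chr6:113890001-113893000), had 10.4 and 11.1 in control and 37.7 and 43.1 in ex14D. The domain over the Atp2b2 promoter (chr6:114040001-114044000) had 10.1 and 11.9 against 36.2 and 33.2. Within Fgf12, a member of the fibroblast growth factor family (chr16:28564001-28566000), the values were 10.8 and 9.87 against 35.4 and 36.1. Within Dysf, the muscle membrane repair gene (chr6:84103001-84108000), they were 16.02 and 5.08 against 34.2 and 33.6, and at the Ptprt promoter (chr2:162658001-162663000) 9.40 and 4.82 against 32.8 and 33.1. Promoter reads were lower in ex14D at Atp2b2 and higher at Ptprt, and neither difference passed the test. The Atp2b2 promoter had 258 and 215 CPM in control and 167 and 170 in ex14D (log2 fold change −0.48 ± 0.21 SE, edgeR adjusted p = 0.185). The Ptprt promoter had 16.8 and 10.4 in control and 28.1 and 30.8 in ex14D (1.18 ± 0.38 SE, adjusted p = 0.0527).

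Counts of H3K27me3 reads in 1 kb promoter windows gave a test that the rule had not used, apart from the presence of a control peak. Promoters of 2430 counted genes were touched by 2110 kept domains, and 2376 of them passed the filter on low counts. H3K27me3 was higher in ex14D at 729 of these (30.7%) and lower at 73 (3.07%) by edgeR's quasi-likelihood test at an adjusted p under 0.05, and 1574 did not pass. Over all 14883 genes tested, 5.85% were higher (871) and 3.19% were lower (475). The share called lower was thus close to that of all genes, and the share called higher was above it. The median log2 fold change was 0.38 (quartiles −0.02 to 0.79) at member promoters and −0.02 at all genes tested. Median levels in member promoters were 175 and 183 CPM in control and 223 and 214 in ex14D, against 19.8 and 18.8 and 16.5 and 16.9 at all genes tested. Input reads showed no such enrichment, with medians of 46.4 and 48.0 CPM at member promoters and 48.9 and 48.0 at all genes tested.

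These counts rest on the scaling of the libraries. When libraries were scaled by their total promoter reads alone (called total reads below), the median of all genes tested was −0.47 and that of member promoters −0.07. With that scaling, 365 member promoters were higher and 287 lower. With all counted reads, including those not assigned to a gene, 550 of 2372 were higher and 70 lower, with a median of 0.25. Relative to all genes, member promoters lay 0.41 higher with TMM scaling and 0.40 with total reads. Scaling shifts all promoters nearly alike, so these 2 values could hardly differ. The number of calls also rests on single libraries. It was 236 higher and 21 lower without control replicate 2, 428 and 29 without ex14D replicate 1, 394 and 10 without ex14D replicate 2, and 699 and 84 without control replicate 1. In those settings 1 library stands for a group and is assumed to vary like the other group. The median stayed between 0.30 and 0.46.

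Marked promoters whose EZH2 domain was not kept differed from those in kept domains. Of 679 promoters tested in lost domains, 6 were higher and 92 lower in H3K27me3 (13.5%), with a median log2 fold change of −0.33. In domains kept in 1 ex14D library, 5 of 409 were higher and 32 lower (median −0.11). At promoters in shared domains that lacked an H3K27me3 peak in 1 or both control libraries, 2 of 202 were higher and 7 lower (−0.13). The difference between kept and lost medians was 0.71 on the log2 scale, and it ranged from 0.63 to 0.78 with a library left out. A change of scaling shifts all promoters nearly alike, so it could hardly move this difference and is no check of it. In each library the median log2(CPM + 1) of kept promoters exceeded that of lost ones, by 1.51 and 1.28 in control and 1.85 and 2.05 in ex14D. The gap was 0.56 wider in ex14D, with no overlap between the groups, and an exact two-sided permutation test over the 4 libraries gave its smallest possible p of 0.333.

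The change in H3K27me3 read counts at promoters followed the width of the EZH2 domain. In kept domains the median log2 fold change was −0.08 for domains of 1 kb, 0.09 for 2 kb, 0.17 for 3 kb, 0.38 for 4 kb, 0.55 for 5 to 9 kb and 1.17 for at least 10 kb. In the widest class 315 of 389 promoters were higher and 3 lower, against 28 and 14 of 381 in the class of 2 kb. With scaling by total reads alone, the classes of 1 to 4 kb were all below 0 (−0.53 to −0.07). Those of 5 to 9 kb and at least 10 kb remained above it (0.10 and 0.72). Scaling shifts all classes nearly alike, so their unchanged order is no check of the trend. In lost domains the median was −0.37, −0.29 and −0.31 at 1, 2 and 3 kb. At each of these widths it lay below that of kept domains, whose medians were −0.08, 0.09 and 0.17. The promoter windows of the wide class are not independent, since 1 domain can hold up to 18 counted genes. Peak fold enrichment over kept domains showed no such order by width. From the narrowest to the widest class its median log2 difference was 0.81, 0.55, 0.62, 0.54, 0.76 and 0.72.

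**Figure D4:**
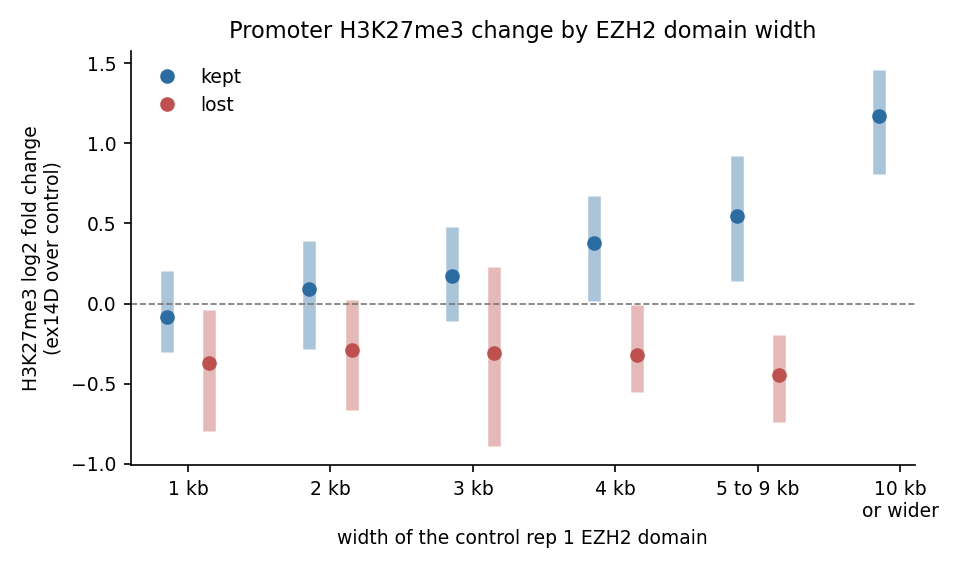
H3K27me3 log2 fold change of promoters (ex14D over control, vertical axis) by width of the control replicate 1 EZH2 domain, for kept and lost domains, with medians as points and quartiles as bars. Kept domains go from −0.08 at 1 kb to 1.17 at 10 kb or more, and lost domains lie at −0.29 to −0.37 up to 3 kb.

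EZH2 read counts of the same genes were lower in ex14D. The deposited EZH2 counts follow gene length and were read as counts over genes, and 960 of the member genes are listed at 0 in all 4 EZH2 libraries. Among the 1468 member genes that could be compared, the median log2 fold change was −0.36 and 89.9% were negative, against a median of 0.02 over all 13401 genes compared. It was −0.11 for genes of domains kept in 1 ex14D library and −0.06 for those of lost domains. Because a count over a whole gene dilutes a narrow domain, these medians are not comparable between narrow and wide domains. The rule used this contrast, so nothing is read from these values.

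Families of developmental regulators, listed by symbol, comprised 266 counted genes. Of these, 203 had their promoter in a kept domain, 2 in a domain kept in 1 ex14D library, 6 in a lost domain and 55 in no marked domain. Over all 23240 counted genes with a RefSeq position, 2430 had their promoter in a kept domain. H3K27me3 rose at 145 of the 203 promoters and fell at 3, with a median log2 fold change of 1.08. With scaling by total reads alone, 112 rose and 6 fell (median 0.63). For comparison, 30.7% of all member promoters and 5.85% of all genes tested were higher with TMM scaling. The kept domains of these families had median widths from 4 kb (Fgf) to 48.5 kb (Hox) in control replicate 1. Among all member promoters in domains of at least 10 kb, 315 of 389 were higher, and the part of width in the family counts was not tested. In all 15 families the median was positive with TMM scaling, and with total reads that of the Six-Eya genes (−0.14) and of the BMP and GDF genes (−0.004) turned negative. Other families lost calls with total reads, among them the bHLH genes (6 of 19 rose, median 0.40) and the Wnt genes (5 of 16, median 0.31). The number that rose was then 7 of 9 Dlx and Msx, 8 of 11 LIM homeobox, 9 of 13 Nkx, 16 of 25 Fox, 5 of 8 Pax, 6 of 12 T-box, 5 of 14 Sox, 3 of 9 Fgf, 2 of 11 BMP and GDF and 2 of 7 Six-Eya promoters.

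All 39 genes of the Hox clusters, the homeobox factors that set position along the body axis, lay in 8 kept domains. H3K27me3 rose at 36 of them and fell at 0 (median 1.57), and with total reads these counts were the same. Hoxa9 went from 661 and 543 CPM in control to 1928 and 2755 in ex14D (log2 fold change 1.96 ± 0.22 SE). Hoxb1, whose domain is separate from the main Hoxb domain, went from 404 and 401 to 747 and 910 (1.04 ± 0.20 SE, adjusted p = 0.000765). Of the 9 Dlx and Msx genes, homeobox factors of limbs and face, all had their promoter in a kept domain and all 9 rose, for example Dlx5 from 337 and 343 to 798 and 935 (1.35 ± 0.20 SE, adjusted p = 4.11e-05). LIM homeobox genes rose at 9 of 11 kept promoters. Lhx2, a factor of forebrain and eye, reached 1588 and 2152 from 663 and 548 (1.63 ± 0.21 SE), while Isl1, a factor of motor neurons and heart, had 111 and 160 in control and 154 and 163 in ex14D (0.21 ± 0.24 SE, adjusted p = 0.690), with the groups overlapping.

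Nkx genes, homeobox factors of ventral brain, heart and gut, rose at 11 of 13 kept promoters (median 1.12). The domain of Nkx2-5, the cardiac factor (chr17:26836001-26853000), was among them, with promoter values of 317 and 371 in control and 767 and 727 in ex14D (1.12 ± 0.20 SE, adjusted p = 0.000344). Nkx2-2, a factor of the ventral neural tube and pancreas, went from 363 and 337 to 1027 and 1283 (1.72 ± 0.20 SE). Fox genes, forkhead factors, rose at 20 of 25 (median 1.12), among them Foxa2, a factor of endoderm and floor plate, from 393 and 355 to 1037 and 1434 (1.73 ± 0.21 SE). The promoters of Foxj1, Foxn3, Foxn4 and Foxo1 lay in lost domains instead. Pax genes rose at 6 of 8 (median 1.2), Irx genes at 4 of 6 (0.92) and Gata genes at 4 of 4 (1.02), although with total reads only 1 Irx and 1 Gata gene passed. Gata6, a factor of endoderm and heart, had 27.4 and 24.5 in control and 71.0 and 62.7 in ex14D (1.37 ± 0.33 SE, adjusted p = 0.00758).

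Among T-box genes, 7 of 12 rose (median 0.94). They included Eomes, a factor of mesendoderm, with 424 and 363 in control and 785 and 887 in ex14D (1.09 ± 0.20 SE, adjusted p = 0.00046). Tbx3, a limb and heart factor, did not pass, with 230 and 214 against 326 and 274 (0.44 ± 0.20 SE, adjusted p = 0.211). Of the bHLH genes, factors of nerve and muscle cell fate, 13 of 19 rose (0.85), such as Neurog1 from 677 and 525 to 1432 and 1910 (1.48 ± 0.21 SE), whereas the promoter of Atoh7 lay in a lost domain. Sox genes, HMG-box factors, rose at 7 of 14 (0.69). Sox17, the endoderm factor, went from 393 and 351 to 624 and 652 (0.78 ± 0.19 SE, adjusted p = 0.00975). Sox13 fell, from 96.0 and 67.8 to 36.3 and 32.8 (−1.22 ± 0.32 SE, adjusted p = 0.0138), but not without control replicate 2 (adjusted p = 0.0538) or without ex14D replicate 1 (0.159) or 2 (0.273).

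Wnt genes, secreted ligands, rose at 10 of 16 kept promoters (median 0.76), with Wnt1 at 533 and 540 in control and 1313 and 1522 in ex14D (1.40 ± 0.20 SE). Fgf genes, growth factors that act through receptor tyrosine kinases, rose at 3 of 9 (0.51), and Fgf9 went from 666 and 502 to 1592 and 1976 (1.62 ± 0.21 SE). Fgf20 fell, from 177 and 174 to 101 and 77.6 (−0.97 ± 0.24 SE, adjusted p = 0.00893), but not without control replicate 2 (adjusted p = 0.0992) or without ex14D replicate 1 (0.0771) or 2 (0.407). The domain of Fgf10 was kept in 1 ex14D library only. Of the BMP and GDF genes, 11 of 25 had their promoter in a kept domain and 3 rose (0.45). Bmp4 was not among these, with 123 and 111 in control and 159 and 122 in ex14D (0.27 ± 0.24 SE, adjusted p = 0.591). The promoter of Gdf11 lay in a lost domain and that of Bmp8a in a domain kept in 1 ex14D library. Six-Eya genes, factors of sense organs and kidney, rose at 3 of 7 (0.31).

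Other lists are set beside all 23240 counted genes with a RefSeq position, of which 2430 had their promoter in a kept domain. A count of 1 in 10 is near that share. Of 10 pluripotency genes, only Klf4, a factor of naive ES cells, had its promoter in a kept domain. Its EZH2 domain was 5 kb in each control and 3 kb in each ex14D library, and H3K27me3 had 142 and 95.1 CPM in control and 64.4 and 62.7 in ex14D (−0.88 ± 0.28 SE, adjusted p = 0.0439). This call was lost with each library left out in turn (adjusted p of 0.199 without control replicate 1, 0.0608 without control replicate 2, 0.317 without ex14D replicate 1 and 0.440 without ex14D replicate 2). Of 10 PRC2 genes, only that of Phf19, which encodes an accessory subunit, did so, with 279 and 237 against 271 and 216 (−0.08 ± 0.21 SE, adjusted p = 0.888). Of 77 ribosomal protein genes there were 0.

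Of the genes studied by ChIP-PCR, Hoxa10, Hoxd9, Bmp6, Pax7, Shc3 and Elavl3 had their promoter in a kept domain. Runx2, a bone factor, had no control replicate 1 domain over the promoter at its most upstream RefSeq start. Other starts of the gene were not examined. CPM are shares of a library's promoter reads and give no total amount of the mark. At Hoxa10, H3K27me3 was 565 and 544 CPM in control and 1438 and 1977 in ex14D, and at Hoxd9 645 and 527 against 1817 and 2302. The groups stood well apart at both (log2 fold changes 1.62 ± 0.21 SE and 1.82 ± 0.21 SE, edgeR adjusted p of 8.62e-06 and 2.77e-06). Bmp6 had 562 and 391 against 1040 and 1404 (1.37 ± 0.22 SE, adjusted p = 9.66e-05), and Pax7 608 and 402 against 1084 and 1226 (1.2 ± 0.21 SE, adjusted p = 0.000353). Shc3 had 488 and 402 against 834 and 942 (1.00 ± 0.20 SE, adjusted p = 0.00121). Elavl3 went the other way, with 306 and 191 in control and 133 and 118 in ex14D (−0.97 ± 0.24 SE, adjusted p = 0.00835). No group overlapped another at these 6 promoters. Without control replicate 2 the adjusted p was 0.0738 for Bmp6, 0.0670 for Pax7 and 0.0797 for Shc3. For Elavl3 it was 0.0702 without control replicate 1, 0.0780 without ex14D replicate 1 and 0.226 without ex14D replicate 2.

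The EZH2 domains of these genes had the widths given above for Hoxa10, Hoxd9 and Elavl3. Those of Bmp6 were 5 and 6 kb in control and 4 and 5 kb in ex14D, those of Pax7 (chr4:139817001-139840000) 23 and 24 against 22 and 24 kb, and those of Shc3 5 and 6 against 4 kb in each ex14D library. EZH2 counts over these genes, given as a description, were 301 and 310 CPM in control and 249.5 and 191 in ex14D for Hoxa10, and 663 and 693 against 554 and 448 for Pax7. At Shc3 they were 159 and 159 against 155 and 155, and at Elavl3 51.8 and 50.5 against 44.1 and 41.9. The ex14D values lay below the control values in all of these, by little at Shc3. Elavl3 was thus the narrowest domain of the 6 in ex14D and the only one of them with lower H3K27me3 counts there.

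**Figure D5:**
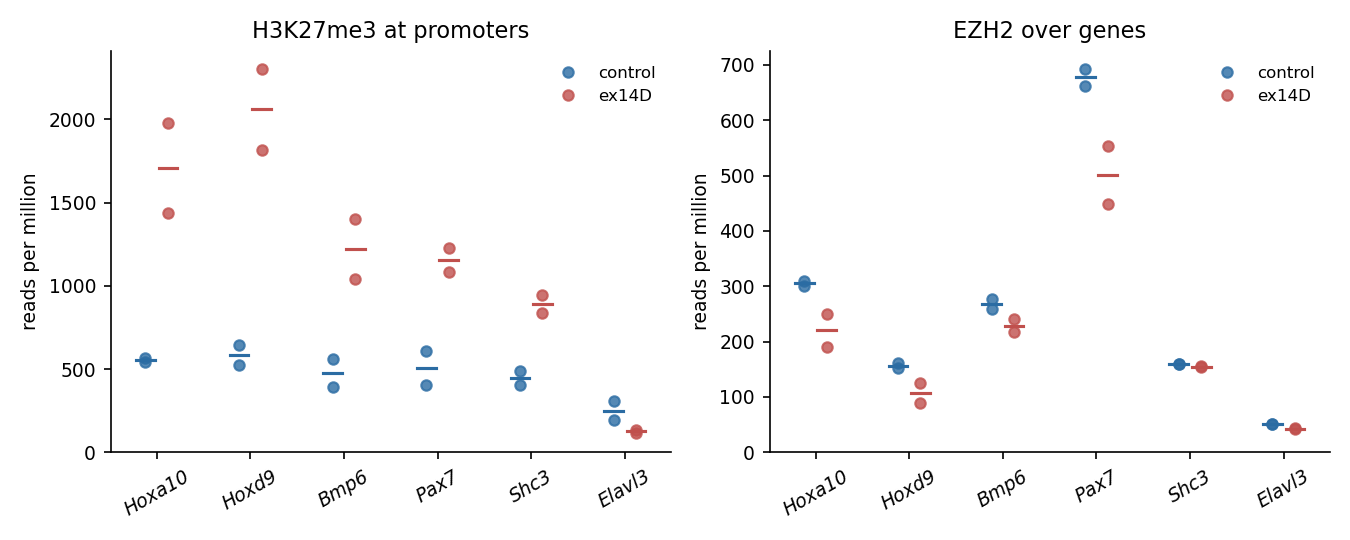
Counts-per-million (CPM) of H3K27me3 at promoters (left) and of EZH2 over genes (right) at 6 genes studied by ChIP-PCR, in control and ex14D. Each point is a library and each line the mean of 2. H3K27me3 is higher in both ex14D libraries at 5 genes and lower at Elavl3, while EZH2 counts are lower in ex14D at each gene.

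Among all member promoters, 729 passed the threshold upward and 73 downward with 1 direction in all 4 pairs of libraries and an average log2 CPM of at least 3. The largest rises were at Pcdh7, from 60.9 and 47.1 to 204 and 268 CPM (log2 fold change 2.14 ± 0.26 SE, adjusted p = 4.11e-06), at Hoxb3, from 355 and 422 to 1274 and 2049 (2.09 ± 0.23 SE), and at Pcdh10, from 29.0 and 43.3 to 118 and 184 (2.02 ± 0.30 SE, adjusted p = 4.91e-05). Pcdh7 and Pcdh10 encode protocadherins, adhesion molecules of neurons, and their EZH2 domains measured 9 and 7 kb in control replicate 1. Evx2, a homeobox gene beside the Hoxd cluster, followed with 628 and 496 against 1869 and 2627 (2.00 ± 0.22 SE), and Hoxa11 with 230 and 195 against 681 and 994 (1.98 ± 0.22 SE). Without control replicate 2 the adjusted p of Pcdh10 was 0.0532.

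The largest falls lay in EZH2 domains of 3 to 5 kb in control replicate 1, apart from that of Mir132 (10 kb), against 7 kb or more for the largest rises. In control replicate 2 the widths overlapped, at 3 to 14 kb for the falls and 12 and 9 kb for Pcdh7 and Pcdh10. Pbx3, a partner of Hox factors, fell from 92.9 and 71.5 to 14.04 and 19.9 (−2.27 ± 0.35 SE, adjusted p = 6.48e-05), and its domain measured 3 kb in each control library and 1 and 3 kb in ex14D. Cdkn2c, an inhibitor of cell cycle kinases, fell from 178 and 134 to 44.6 and 26.9 (−2.10 ± 0.29 SE, adjusted p = 2.56e-05), with a domain of 3 and 14 kb in control and 2 and 11 kb in ex14D. Rnf220, a ubiquitin ligase with a domain of 5 and 14 kb in control, fell from 346 and 115 to 68.5 and 42.8 (−2.0 ± 0.35 SE, adjusted p = 0.000306), and in DESeq2 its adjusted p was 0.0503. Its log2 fold change was −1.07 without control replicate 1 and −2.64 without control replicate 2. Id4, an inhibitor of bHLH factors, fell from 39.6 and 48.9 to 13.2 and 8.95 (−1.98 ± 0.37 SE, adjusted p = 0.000645), and without control replicate 2 its adjusted p was 0.0737. Mir132, a microRNA gene, had the lowest counts of these, with 9.14 and 19.8 in control and 4.96 and 0 in ex14D (−2.46 ± 0.74 SE, adjusted p = 0.0332), and without ex14D replicate 2 its log2 fold change was −1.58, with an adjusted p of 0.288. Without ex14D replicate 1, where the other ex14D library is at 0, no fold is given. Peak fold enrichment over these domains did not show these falls. At Id4 it was 2.33 and 1.93 in control against 7.07 and 6.93 in ex14D. At Rnf220 it was 3.55 and 4.41 against 5.62 and 8.46, and at Cdkn2c 9.26 and 2.51 against 13.8 and 9.65. The groups overlapped at Mir132 (4.29 and 2.67 against 8.40 and 3.93) and Pbx3 (4.17 and 3.01 against 3.32 and 3.12). All peaks of the ex14D libraries also had higher fold enrichment.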

How the data were processed

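Per the labels and the methods, the authors aligned reads to mm10 (GRCm38) with Bowtie (Bowtie2 in the processing labels), called H3K27me3 broad peaks with MACS2 and EZH2 domains with hiddenDomains in each library, and counted reads per gene with HTSeq. The deposited counts are whole reads without normalization. H3K27me3 and input reads were counted in 1 kb promoter windows. Of the H3K27me3 reads, 92.4% to 94.4% were not assigned to a gene, for whatever reason, and were left out. The EZH2 counts followed gene length, so they were taken as counts over genes although the methods name promoter windows. The deposited fold enrichment is a ratio and the peak caller's −log10 q was used as deposited by the authors. The control given to MACS2 is not given in the sources used here. H3K27me3 domains from hiddenDomains were not used here, because some run past chromosome ends of this build.

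Domain width was the summed width of domains touching a member. Fold enrichment of a member was the mean over touching peaks, weighted by overlap. Counts were compared with edgeR 4.0.16 in R 4.3.3 (limma 3.58.1, TMM, filterByExpr, quasi-likelihood test, Benjamini-Hochberg adjustment over all genes tested, threshold 0.05), with DESeq2 1.42.0 as an alternative, after a test on simulated data. SE is the log2 fold change over the square root of F. RefSeq gave gene positions for 23240 of 24500 counted genes. Python 3.11.15, pandas 2.3.3 and scipy 1.17.1 were used. Alternatives were the overlap, the peak threshold, the anchor library, scaling, filter, test, replicate block and each library left out. The members, families and lists were chosen with earlier results of these data known.

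Named were genes studied by ChIP-PCR, the 5 widest members, the 5 lowest and 5 highest width ratios among members of at least 3 kb in both control libraries, the 5 members with the highest value of the lower ex14D fold enrichment, members without an ex14D peak, and the 5 largest rises and falls among called promoters with 1 direction and average log2 CPM of at least 3. Family examples were chosen after their values were seen. Promoter windows of Atp2b2 and Ptprt are shown because the 3 members ranked first by the lower ex14D fold enrichment held no counted promoter. Some items are not reported here.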

Additional observations from a re-analysis of the deposited data

How the results depend on the processing

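The number of kept domains stayed within 1.5 times of 2814 except when peaks needed −log10 q of at least 3, which left 1521 of 2299 marked domains. The share kept was 58.0% with an overlap of at least 0.5 of the domain, 66.2% with the stricter peaks, and 50.7% to 71.4% with a library left out. The median width ratio was 0.80 by bases covered within the control replicate 1 domain and 0.625 to 0.833 with a library left out. The fold enrichment difference turned from 0.63 to −0.068 relative to all peaks and was 0.52 to 0.73 with a library left out. Member promoters called higher and lower numbered 365 and 287 with total reads as library size, and 236 to 699 and 10 to 84 with a library left out. Their median log2 fold change was −0.069 with total reads and 0.25 with all counted reads including those not assigned to a gene. It was 0.31 without a filter, 0.29 in DESeq2 and 0.30 to 0.46 with a library left out. The median EZH2 log2 fold change was −0.47 to −0.28 with a library left out, and −0.32 with total reads. The kept minus lost difference, an alternative added after seeing the data, was 0.63 to 0.78 with a library left out. Phf19, which passed no test, had −0.27 to 0.11 with a library left out. The cause of these shifts was not tested. The fit with the replicate number as a block called 643 member promoters higher and 66 lower (median 0.39). Libraries of the same number did not deviate together (correlation −0.0973 for H3K27me3 and −0.0184 for EZH2), so the block pairs nothing by design, and Klf4 was the named promoter that lost its call under it (adjusted p = 0.0771). Mir132 had the lowest reads of the named promoters, at 0 to 19.8 CPM, and the part of depth in its call was not tested.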
